A study of Mus musculus with 12 samples.

Results

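The F-box proteins and cullins are the 58 genes of the deposited table of unstimulated CD8 T cells whose symbols begin with Fbxl, Fbxo, Fbxw or Cul followed by a digit, out of 11581 genes in all. They comprise 14 Fbxl, 27 Fbxo and 9 Fbxw rows and 8 cullins. The rule uses symbols alone, but the members were chosen with earlier results of these data known. The Fbxl rows include Fbxl12os, a non-coding antisense RNA in GENCODE M21, and Fbxo18 carries the symbol Fbh1 there. Of 85 protein-coding genes of that annotation with matching symbols, 56 have a row, among them all 8 cullins, 26 of 36 Fbxo, 13 of 18 Fbxl and 9 of 23 Fbxw genes. The others were not analysed here.

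The libraries came from purified CD8 T cells of C57BL/6 J mice carrying CD45.2 that had been reconstituted 2 months earlier with a mixture of bone marrow. In both groups 1 marrow donor was CD45.2+ and the other was an OT-1 CD45.1+/2+ mouse, so the transgenic T cell receptor for the SIINFEKL peptide of ovalbumin is shared by the groups. The OT-1 donor was Foxp3Scurfy in one group, scurfy being a loss-of-function mutation of the regulatory T cell factor Foxp3, and Foxp3wt in the other. The labels do not say whether the purified cells were separated by donor or how many mice entered a library. Of the 12 samples in 4 groups, the 3 scurfy and 3 wild-type libraries without stimulation are compared here, and the libraries given peptide for 6 h were not analysed here. As the labels do not name separate mice, a p-value here reflects the spread among these libraries alone, which may be technical.

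Cullins are scaffolds of the largest family of ubiquitin ligases. One end of a cullin binds a RING protein that brings the ubiquitin-conjugating enzyme, and the other binds an adaptor and a receptor that selects the protein to be marked. F-box proteins are the receptors of cullin 1 ligases, called SCF ligases, and reach the cullin through the adaptor SKP1. Fbxw receptors carry WD40 repeats, Fbxl receptors leucine-rich repeats and Fbxo receptors other domains. Cullins are switched on by attachment of the ubiquitin-like protein NEDD8. In T cells these ligases are known for the turnover of cell cycle inhibitors, of the inhibitor of NF-kB and of signalling proteins.

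The results turn on the F-box gene Fbxo11 and on the NEDD8 pathway genes Nedd8 and Uba3, so their promoters are shown, each from 250 bases before to 50 bases after a RefSeq gene start on GRCm38.p6. All lie on the minus strand and are written 5′ to 3′ along the gene. Capitals mark the CCAAT box (CCAAT) and an Ets core (CCGGAAG), each searched on both strands, and no marked match overlaps another. Only starts on a gene's own chromosome are printed. Fbxo11 has 2 such starts, A at chr17:88065996-88066295 and B at chr17:88064492-88064791, Nedd8 lies at chr14:55671831-55672130 and Uba3 at chr6:97205598-97205897.
Fbxo11 start A: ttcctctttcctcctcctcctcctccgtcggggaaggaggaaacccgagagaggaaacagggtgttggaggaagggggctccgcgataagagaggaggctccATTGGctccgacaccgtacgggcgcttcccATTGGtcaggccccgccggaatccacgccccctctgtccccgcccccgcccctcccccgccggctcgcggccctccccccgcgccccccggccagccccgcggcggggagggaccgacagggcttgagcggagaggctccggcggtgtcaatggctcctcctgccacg
Fbxo11 start B: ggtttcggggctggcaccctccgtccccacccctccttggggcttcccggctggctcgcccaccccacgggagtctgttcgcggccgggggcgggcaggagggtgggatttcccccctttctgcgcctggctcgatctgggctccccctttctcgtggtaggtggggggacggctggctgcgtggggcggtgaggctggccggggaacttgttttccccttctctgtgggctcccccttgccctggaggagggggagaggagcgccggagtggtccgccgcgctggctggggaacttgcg
Nedd8: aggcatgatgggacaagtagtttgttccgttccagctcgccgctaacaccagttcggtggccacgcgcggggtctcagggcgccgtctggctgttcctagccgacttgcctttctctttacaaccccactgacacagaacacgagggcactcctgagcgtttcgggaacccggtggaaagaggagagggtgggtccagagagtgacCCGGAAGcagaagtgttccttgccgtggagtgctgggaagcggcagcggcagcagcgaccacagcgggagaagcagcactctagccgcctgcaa
Uba3: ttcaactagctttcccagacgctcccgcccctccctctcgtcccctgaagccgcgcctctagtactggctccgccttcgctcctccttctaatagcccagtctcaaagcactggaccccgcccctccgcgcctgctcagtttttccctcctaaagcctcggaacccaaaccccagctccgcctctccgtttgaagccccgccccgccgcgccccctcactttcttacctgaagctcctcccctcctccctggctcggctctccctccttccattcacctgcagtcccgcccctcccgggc

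Start A of Fbxo11 holds 2 CCAAT boxes, both on the opposite strand, and the Nedd8 promoter holds 1 Ets core. All 4 are rich in G and C, from 61.3% for Nedd8 to 71.7% for both Fbxo11 starts, against a median of 52.7% over 32851 promoters of 300 bases. RefSeq promoters were found for 44 members, which have 64 starts with a median of 59.8% G and C. The CCAAT box was in 28.1% of these 64 promoters and in 37.4% of all promoters, and the Ets core in 21.9% and 8.86%. These sets are unlike, as the 32851 promoters were not limited to genes with a row. The members' promoters held a median of 19.5 CG pairs beside 7 over all promoters, and the Ets core itself contains a CG. The part of this in the motif shares was not tested. The forkhead core TGTTTAC, the kind of sequence that forkhead proteins such as Foxp3 bind, was in 1.56% of the members' promoters and in 3.65% of all, searched on both strands. Its single match among members was in Cul7, and none of the 4 printed promoters holds these letters.

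The 6 libraries held between 8852518 and 23149523 reads over the table, and 3 reads correspond to 1.45 to 3.99 normalized counts. All 8 markers of CD8 T cells have a row, and Cd8b1 was at 21566 ± 300.4 normalized counts in scurfy against 21498 ± 203 in wild type (SD, n = 3 each). Of these markers Cd3d was higher (log2 fold change 0.76, adjusted p = 0.00551) and Cd28 lower (-0.67, adjusted p = 0.00776) in scurfy by limma. None of the 4 markers of CD4 T cells, Foxp3 among them, or the 4 of natural killer cells has a row, so the genotype was not checked on its own transcript. Of 10 B cell markers 7 have a row, and all 7 had lower estimates in scurfy libraries. Their summed level, most of it Ighm, was 9895 to 11352 normalized counts in scurfy and 10971 to 11753 in wild type, and H2-Aa was at 6.82 ± 8.08 against 71.7 ± 13.6. The myeloid marker Cst3 was at 1406 to 1523 in scurfy against 821 to 1131 in wild type, and the erythroid marker Car2 at 101 to 156 and 232 to 315, the others of those lists (8 of 9 and 5 of 6) having no row. Of the B cell, myeloid and erythroid markers H2-Aa, Cst3 and Car2 passed in limma. Ighm, at an adjusted p of 0.713, and the other 5 B cell markers did not, and the summed B cell level overlapped between the groups. The call of H2-Aa ended without wild-type library 2 or 3, and that of Car2 without wild-type library 3. That of Cst3 ended without scurfy library 2 or 3 or wild-type library 2, on library size, and with a length trend removed (limma adjusted p = 0.0821). Those of Cd3d and Cd28 held whichever library was left out. The part of H2-Aa, Cst3, Car2, Cd3d and Cd28, which moved with genotype, in the results that follow was not tested.

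Between the unstimulated CD8 T cell libraries of the scurfy and wild-type groups, 1 of the 58 members passed the threshold. Fbxo11, an F-box receptor, fell below the level of every wild-type library, and no F-box gene or cullin rose. The threshold is an adjusted p of 0.05 in limma, a linear model fitted to log2(normalized count + 1) over all 11581 genes with Benjamini-Hochberg adjustment, in which 4.47% of all genes were called, 2.35% as lower and 2.12% as higher in scurfy. The 1 lower call is 1 of 58, near the share of all genes. DESeq2 and edgeR on reads recovered from the normalized counts called Fbxo11 and no other member, where they called 8.9% and 4.84% of the genes they tested. By unadjusted p under 0.05, 11 members passed, beside 21.2% of all genes. In bulk RNA, fewer cells of a type and less RNA per cell cannot be told apart.

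The differences among the other 57 members were mostly small. The median log2 fold change, scurfy minus wild type, was -0.10 over the members and 0.01 over all genes. It was -0.13 for Fbxo, -0.08 for cullins, -0.07 for Fbxl and -0.07 for Fbxw. Of the members 36 had a negative and 22 a positive estimate, so that 62.1% were negative beside 48.9% of all genes. A difference of more than 0.5 on the log2 scale in either direction was found in 6 members, or 10.3%, beside 22.1% of all genes. The libraries of the groups did not overlap for 20 members, 14 lower and 6 higher in scurfy, which is 34.5% of the members beside 27.1% of all genes (13.7% lower and 13.4% higher).

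**Figure D1:**
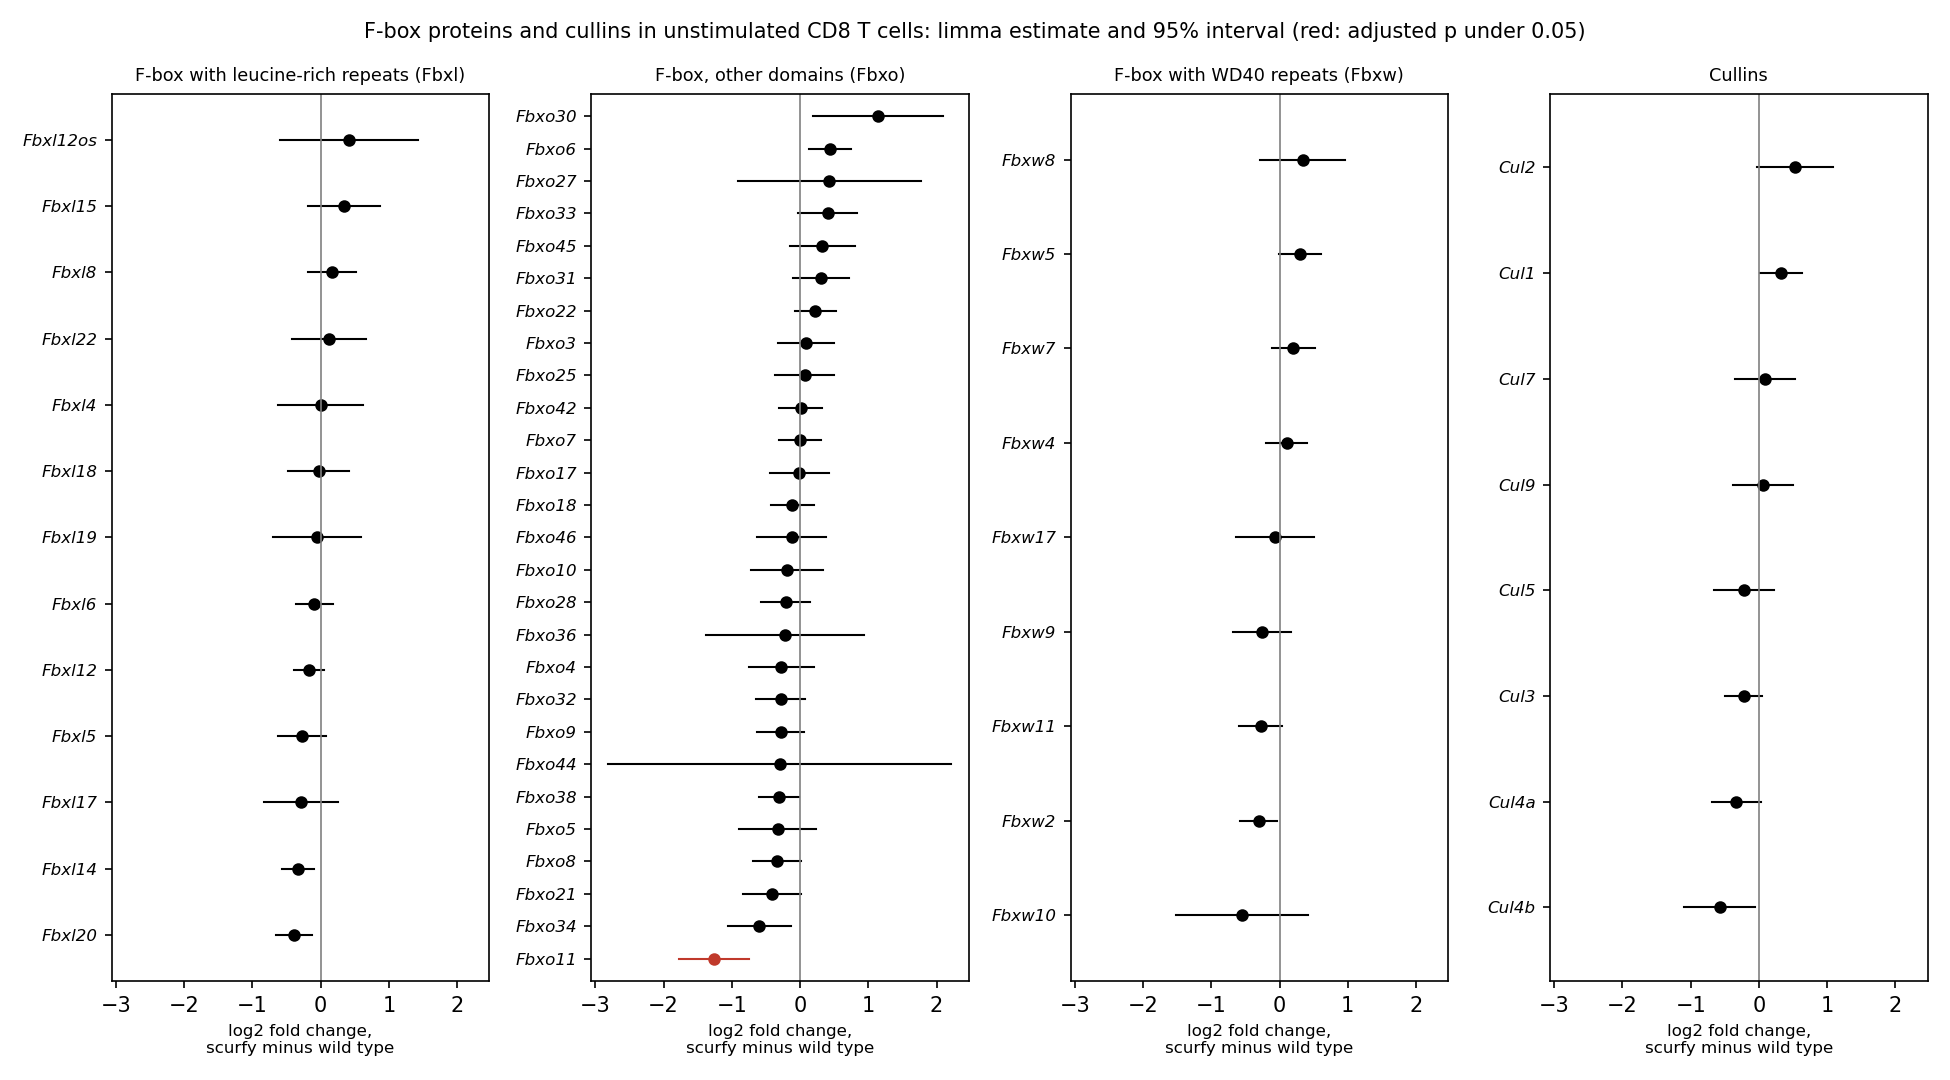
Each point is the log2 fold change of 1 of 57 members (x axis, scurfy minus wild type, limma on 3 against 3 libraries) and each line its 95% interval, arranged by class. Fbxo11 at -1.26 is the one member past the threshold, and the widest interval belongs to Fbxo44, a gene with a mean of 9.58 normalized counts.

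Fbxo11 (chromosome 17 in GENCODE M21) encodes a receptor known from human B cells for marking the repressor BCL6. It was at 143, 134 and 82.7 normalized counts in scurfy libraries 1 to 3 and at 320.4, 225 and 308 in wild-type libraries 1 to 3. Every scurfy library lay below every wild-type library, scurfy library 3 being the lowest of all and wild-type library 2 the lowest of its group. The mean was 120.0 ± 32.5 in scurfy against 285 ± 51.7 in wild type (SD, n = 3 each), 2.37-fold lower in scurfy. The log2 fold change was -1.26 (SE 0.24, 95% interval -1.78 to -0.75, limma adjusted p = 0.0131). Behind these values stand 118, 110 and 70 reads in scurfy against 241, 466 and 367 in wild type. In the authors' deposited table the log2 fold change of Fbxo11 is -1.24 with an adjusted p of 7.78e-05. The limma call ended without wild-type library 3, at -1.20 and adjusted p = 0.0587, and held with each other library left out (0.0120 to 0.0437).

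Exons of Fbxo11 and of Msh6, a mismatch repair gene on the opposite strand, share 34 bases in GENCODE M21, and no source used here tells if reads were counted by strand. In all, 19 members share exonic bases with another gene, 8 of them with a gene that has a row, so their values carry the same limit. Msh6 was at 315 ± 42.6 normalized counts in scurfy against 310.2 ± 92.3 in wild type, with a log2 fold change of 0.06 (SE 0.22). The transcript of the known target, Bcl6, was at 40.0, 33.0 and 35.5 in scurfy against 58.5, 72.0 and 95.7 in wild type. Its groups did not overlap, but it did not pass in limma (log2 fold change -1.02, adjusted p = 0.0889).

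Among the other 26 Fbxo genes none passed. Fbxo34 was at 151, 111 and 168 normalized counts in scurfy libraries against 202, 202 and 242 in wild type. The groups did not overlap, yet the adjusted p was 0.121 in limma (log2 fold change -0.60, 95% interval -1.06 to -0.14). Fbxo6, whose protein binds glycoproteins bearing high-mannose sugars, stood on the opposite side. It was at 439.6, 442 and 485 in scurfy against 335, 306 and 368 in wild type, and all 3 scurfy libraries exceeded all wild-type libraries. Its log2 fold change was 0.44 (95% interval 0.12 to 0.75, limma adjusted p = 0.101). Fbxo30, known from muscle wasting, had the largest positive estimate of the members. It was at 48.4, 24.4 and 40.2 in scurfy against 15.95, 14.98 and 16.8 in wild type, again without overlap (log2 fold change 1.14, SE 0.45, adjusted p = 0.156). These values stand on 40, 20 and 34 reads in scurfy against 12, 31 and 20 in wild type, and the 95% interval is wide, from 0.19 to 2.10.

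Fbxo38, the receptor known for marking the inhibitory receptor PD-1 of T cells, was at 471, 536 and 494 in scurfy against 553, 708 and 608 in wild type. The groups did not overlap but the difference did not pass (log2 fold change -0.31, adjusted p = 0.215). Fbxo8 (-0.34), Fbxo21 (-0.41), Fbxo10 (-0.20) and Fbxo32 (-0.28), which encodes the muscle atrophy receptor atrogin-1, also had every scurfy library below every wild-type library without passing. Fbxo22 (0.22) had every scurfy library above. Fbxo5, which encodes the inhibitor EMI1 of the anaphase-promoting complex, was at 78.3 ± 8.40 in scurfy against 99.6 ± 19.1 in wild type with overlapping groups, and the 95% interval of its log2 fold change ran from -0.90 to 0.24.

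None of the 14 Fbxl rows passed, while 10 had negative estimates, or 71.4% beside 48.9% of all genes. The 4 with the smallest p were lower in every scurfy library than in any wild-type library. These 4 are 28.6% of the Fbxl rows, near the 27.1% of all genes whose groups did not overlap in either direction (13.7% lower). Fbxl20, a receptor known from synapses, was at 1208, 1389 and 1047 normalized counts in scurfy against 1603, 1481 and 1659 in wild type (log2 fold change -0.39, standard error 0.12, adjusted p = 0.0833). Fbxl14, a receptor for factors of the Snail family, was at 914, 914 and 905 in scurfy against 1156, 1198 and 1076 in wild type. Its scurfy libraries had an SD of only 5.01 normalized counts, and the log2 fold change was -0.33 (adjusted p = 0.102).

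When libraries were scaled by their totals in place of the authors' factors, the median of all genes was -0.13, and Fbxl20 and Fbxl14 passed with limma adjusted p of 0.0229 and 0.0248, where 6.57% of all genes were called lower. The members' median lay -0.11 from that of all genes under both scalings. Fbxl12 was at 1624, 1606 and 1565 in scurfy against 1685, 1769 and 1959.7 in wild type (log2 fold change -0.17, adjusted p = 0.365). It shares 1890 exonic bases with Ubl5 on the opposite strand, which was at 2817 ± 1291 in scurfy against 1095 ± 243 in wild type, so the Fbxl12 value is uncertain. Fbxl5, the iron-sensing receptor that marks iron regulatory protein, was at 331 ± 56.5 in scurfy against 396 ± 31.9 in wild type with overlapping groups.

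None of the 9 Fbxw genes passed. Fbxw2 was at 839, 760.3 and 670.2 normalized counts in scurfy against 847, 977 and 981 in wild type, the groups being separate by a narrow gap (log2 fold change -0.31, adjusted p = 0.179). Fbxw5 was at 469.8, 526 and 560.3 in scurfy against 389, 409 and 466 in wild type (log2 fold change 0.30, adjusted p = 0.246). Here the lowest scurfy library just exceeded the highest wild-type library. Fbxw11, one of the pair of beta-TrCP receptors that mark the inhibitor of NF-kB and beta-catenin, was at 443, 411 and 473 in scurfy against 577, 456 and 581 in wild type. Its groups overlapped, and the 95% interval of the log2 fold change ran from -0.59 to 0.04. Fbxw7, the tumour suppressor that marks cyclin E, MYC and NOTCH, was at 424, 413 and 512 in scurfy against 366, 410.3 and 390.3 in wild type. Its groups barely missed each other, and the interval of its log2 fold change ran from -0.11 to 0.52. Fbxw10 had the lowest estimate of the class, -0.55, from a mean of only 25.1 normalized counts (95% interval -1.52 to 0.42).

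No cullin passed, and the estimates divided evenly into 4 negative and 4 positive. Cul4b, an X-linked scaffold that takes its receptors through DDB1, was at 78.7, 116 and 112 normalized counts in scurfy against 175, 133 and 147 in wild type. The groups did not overlap (log2 fold change -0.58, SE 0.24, adjusted p = 0.187). Its paralog Cul4a was at 239.8, 226 and 229 in scurfy against 294, 269 and 313 in wild type, also without overlap (log2 fold change -0.33, adjusted p = 0.266). Cul1, the scaffold that the F-box proteins use, lay the other way. It was at 488, 511 and 569.8 in scurfy against 447, 449 and 363 in wild type, with every scurfy library above (log2 fold change 0.32, 95% interval 0.01 to 0.63, adjusted p = 0.224).

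Cul2, the scaffold of the VHL ligase, was at 189, 171 and 279 in scurfy against 150.2, 196 and 102 in wild type. The groups overlapped, scurfy library 3 being the highest and wild-type library 3 the lowest (log2 fold change 0.53, adjusted p = 0.263). Cul3, the partner of BTB receptors, was at 662 ± 41.1 in scurfy against 776 ± 76.9 in wild type (log2 fold change -0.23, 95% interval -0.50 to 0.05). Cul5, which works with SOCS-box receptors, was at 167 ± 30.0 and 193 ± 22.1 (-0.22, 95% interval -0.66 to 0.23). It shares 110 exonic bases with Gm16124 on the opposite strand, which was at 628 ± 125 in scurfy against 660 ± 59.4 in wild type, so the Cul5 value is uncertain. Cul7 was at 162 ± 12.3 and 153 ± 17.4 and Cul9 at 249 ± 10.1 and 245 ± 71.2, with estimates of 0.09 and 0.06 that both turned negative on library size, as did Cul9 without wild-type library 2 or 3. The summed level of the 8 cullins was 2229 to 2385 normalized counts in scurfy and 2238 to 2455 in wild type, so the groups overlapped. Per kilobase of exon Cul3 was the highest cullin, at 148 normalized counts, and Cul9 the lowest, at 20.2. The libraries were primed from the poly(A) tail, so a level per kilobase is only a rough scale between genes.

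**Figure D2:**
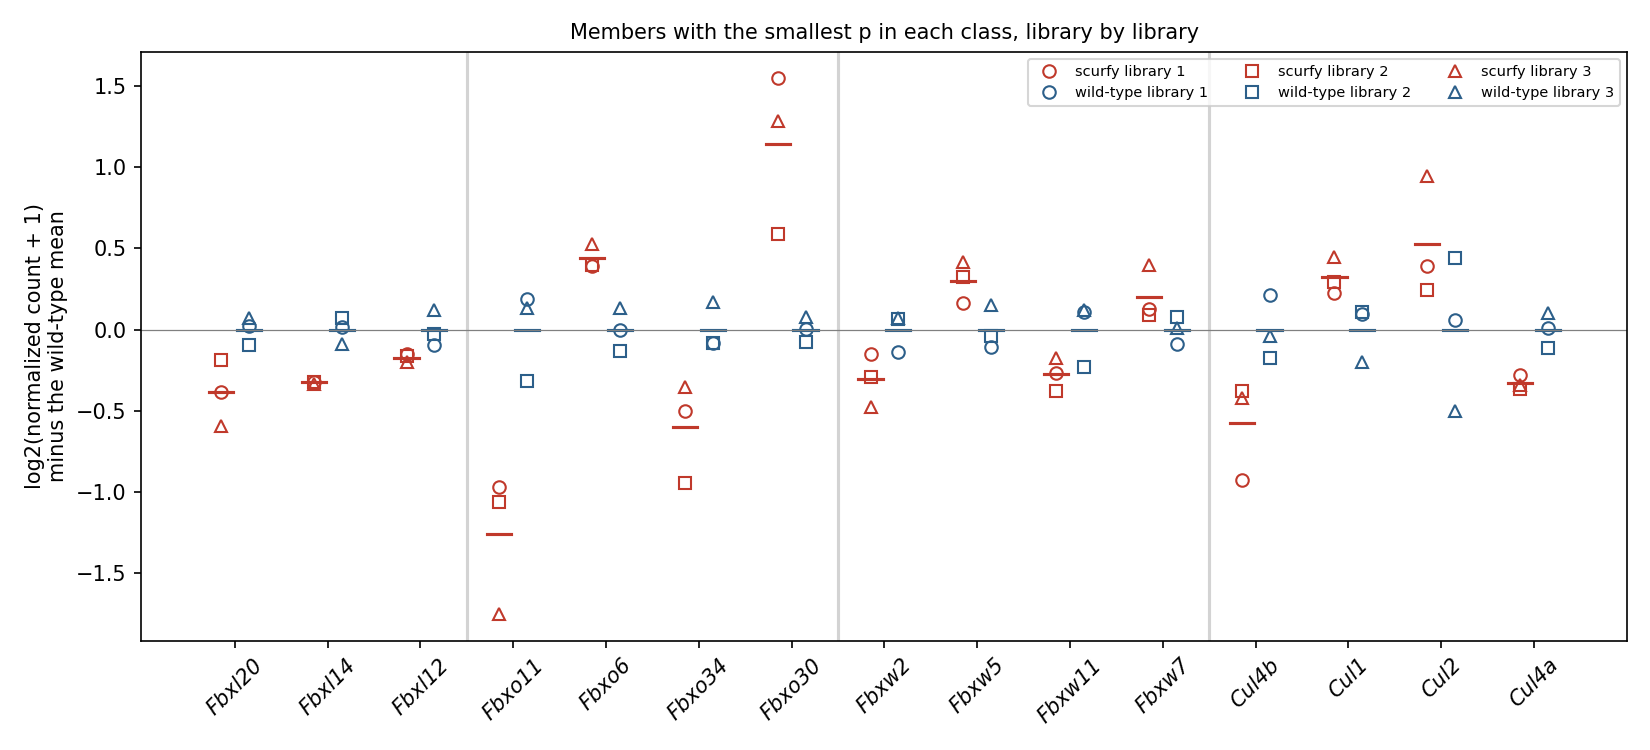
For the members with the smallest p in each class (3 Fbxl and 4 of each other class), every library is plotted as log2(normalized count + 1) minus the wild-type mean (y axis), with short lines at group means and marker shape for library number. Fbxo11 (log2 fold change -1.26) lies farthest below the wild-type mean and Fbxo30 (1.14) farthest above it.

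Across members the level per kilobase ran from 3.17 normalized counts for Fbxo44 to 409 for Fbxl6, with a median of 54.6 beside 59.3 over all genes. The 6 members with a mean under 50 normalized counts, Fbxo44, Fbxo27, Fbxo36, Fbxo30, Fbxw10 and Fbxl12os, had standard errors of 0.45 to 1.18 on the log2 scale. Those of the other 52 members ran from 0.10 to 0.30. Fbxo44, a relative of Fbxo6, was at 0, 19 and 7 reads in scurfy against 1, 25 and 15 in wild type, so no difference was detectable at this depth.

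Libraries within a group also differed. Scurfy library 3 held the highest of the 6 values for 15 members and the lowest for 15, that is 25.9% each, beside 21.8% and 21.9% of all genes. It stood apart in Fbxo3, which was at 380.2, 362 and 634 normalized counts in scurfy against 413, 435 and 400.3 in wild type. The other scurfy libraries of that gene lay below all wild-type libraries. The summed level of all 58 members was 18879.9 to 19004 normalized counts in scurfy libraries and 20139.5 to 20879 in wild-type libraries, without overlap. That sum is weighted to the abundant members Fbxl12, Fbxl20 and Fbxl14.

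The members' median exonic length was 4504 bases, from 1348 for Fbxl15 to 12927 for Fbxl18, beside 4075 over all genes. Across all genes longer ones had lower scurfy values, with a Spearman correlation of -0.25 between length and log2 fold change over 11571 genes of the same 6 libraries, which are not independent replicates. Over the 58 members it was -0.13. The median log2 fold change was -0.17 for the 29 longer members and -0.01 for the 29 shorter ones. With a smooth trend on length removed from each library, the members' median was -0.08 and Fbxo11 stayed past the threshold at -1.23 (adjusted p = 0.0206), in a fit that called 2.64% of all genes.

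The partners of cullins were described from 9 lists with 178 planned genes, of which 157 have a row. In them 1 gene rose and 5 fell in limma, near the 4.47% of all genes called, and the median log2 fold change was -0.05. Of the 11 genes of the NEDD8 pathway 3 were called, in both directions, beside that 4.47% of all genes. Its median was 0.17 beside 0.01 over all genes, and 8 of its genes did not pass.

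Nedd8, the modifier that activates cullins, was at 2997, 2997 and 3404 normalized counts in scurfy against 2059, 2007 and 1601 in wild type. Every scurfy library exceeded every wild-type library, and the level rose 1.66-fold (log2 fold change 0.74, SE 0.12, limma adjusted p = 0.00551). The call held whichever library was left out, with adjusted p up to 0.0238. Nedd8 is short, at 1261 exonic bases, and with the length trend removed it was at 0.58 (adjusted p = 0.0224). It shares 184 exonic bases with Gmpr2 on the opposite strand. Gmpr2 was also higher, at 555 ± 34.8 normalized counts in scurfy against 345 ± 5.99 in wild type (log2 fold change 0.68, adjusted p = 0.0163), so both values are uncertain to the extent that reads were shared.

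Uba3, the catalytic subunit of the enzyme that activates NEDD8, fell. It was at 191, 239 and 128 in scurfy against 334, 342 and 357 in wild type, without overlap (log2 fold change -0.93, SE 0.21, adjusted p = 0.0268). Dcun1d5, a co-factor that helps to place NEDD8 on cullins, was at 745, 856 and 781 in scurfy against 959.7, 1234 and 1426 in wild type. It was lower without overlap (log2 fold change -0.59, adjusted p = 0.0317). The call of Uba3 ended without scurfy library 3 or any 1 wild-type library, and that of Dcun1d5 without any 1 library but wild-type library 1, with adjusted p up to 0.0877 and 0.124, both highest without wild-type library 3. Ube2m, which conjugates NEDD8, was at 1036 ± 97.7 in scurfy against 773 ± 39.4 in wild type and did not pass in limma (log2 fold change 0.42, adjusted p = 0.0616), though DESeq2 called it.

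**Figure D3:**
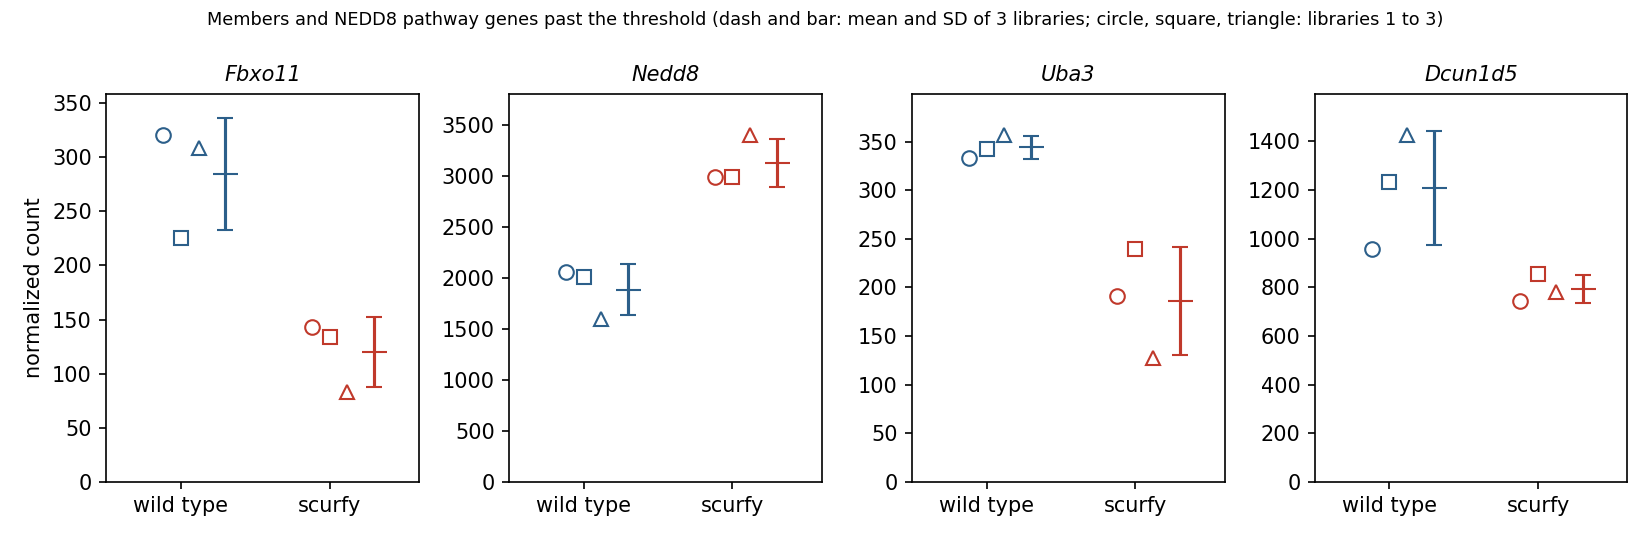
Normalized counts (y axis, from 0) of the member and the NEDD8 pathway genes past the threshold are shown for each wild-type and scurfy library, with the mean and SD beside them. In all 4 genes the groups are separate, Nedd8 being higher and Fbxo11, Uba3 and Dcun1d5 lower in scurfy.

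The remaining parts of the ligases held few calls. None of the 3 adaptor and RING subunits passed, and Skp1a, the adaptor between Cul1 and the F-box, was at 357 ± 50.7 in scurfy against 442 ± 61.0 in wild type (log2 fold change -0.31, adjusted p = 0.2997). None of 9 subunits of the COP9 signalosome, which takes NEDD8 off cullins, passed, the closest being Cops6 at 0.27 (adjusted p = 0.268). Of the 3 exchange factors and inhibitors none passed, and Cand1, which swaps F-box proteins on Cul1, was at 0.31 (adjusted p = 0.227). Of 6 F-box genes with other symbols none passed, the closest being Lrrc29 at 0.91 (adjusted p = 0.156). None of 23 cullin 4 receptors and adaptor-side subunits, Ddb1 and Dda1 among them, passed either, with Wdtc1 at 0.40 (adjusted p = 0.0841). By unadjusted p under 0.05 in limma, the adaptors and RING subunits had 0 genes, the COP9 signalosome 0 and the exchange factors 2. The other F-box genes had 1 and the cullin 4 list 4, beside 21.2% of all genes. DESeq2 and edgeR called 0 genes in these 5 lists.

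Among 46 BTB-domain proteins, the family of Cul3 receptors, 2 fell in limma, where 2.35% of all genes were called lower, and the median log2 fold change was -0.12. For these proteins edgeR called 3 lower, adding Btbd1, where it called 2.69% of all genes lower. DESeq2 called 5 lower, adding Btbd1, Klhl15 and Klhl9, where it called 4.76% of the genes it tested lower. Klhl7 was at 29.1, 14.6 and 8.27 normalized counts in scurfy against 109, 51.2 and 63.8 in wild type (log2 fold change -2.14, adjusted p = 0.0231). Gmcl1 was at 38.7, 67.1 and 40.2 in scurfy against 145, 118 and 174 in wild type (log2 fold change -1.59, adjusted p = 0.0120). Neither gene's groups overlapped. Gmcl1 lost its call without wild-type library 3 (adjusted p = 0.0618). Klhl7 lost it without scurfy library 2 or 3 or wild-type library 1 or 3, reaching 0.0882 without wild-type library 1.

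Of 30 receptors and adaptor subunits of cullins 2 and 5, Socs1, the feedback inhibitor of cytokine signalling, fell. It was at 1991, 1705 and 1254 in scurfy against 2350.1, 2257 and 2770.5 in wild type, without overlap (log2 fold change -0.60, adjusted p = 0.0368). Its call ended without any 1 library but scurfy library 1, reaching 0.130 without wild-type library 3. Socs4 was at 91.2 ± 11.3 in scurfy against 158 ± 4.09 in wild type and did not pass in limma (log2 fold change -0.79, adjusted p = 0.0589), though DESeq2 called it, as did limma on genes with a mean of at least 50 and on library size.

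None of 26 transcripts whose proteins are known F-box targets passed in limma, with 9 at an unadjusted p under 0.05 beside 21.2% of all genes. Of these 26, edgeR called 0 and DESeq2 called 2, Bcl6 and Klf2, where DESeq2 called 8.9% of all genes it tested. Their median was -0.13. Ctnnb1, which encodes beta-catenin, was at 767 ± 28.3 in scurfy against 999 ± 86.8 in wild type (log2 fold change -0.38, adjusted p = 0.0831). Cdkn1b, which encodes the cell cycle inhibitor p27 that SKP2 marks, was at 219.9 ± 27.9 and 333 ± 87.3 (log2 fold change -0.57, adjusted p = 0.115).

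**Figure D4:**
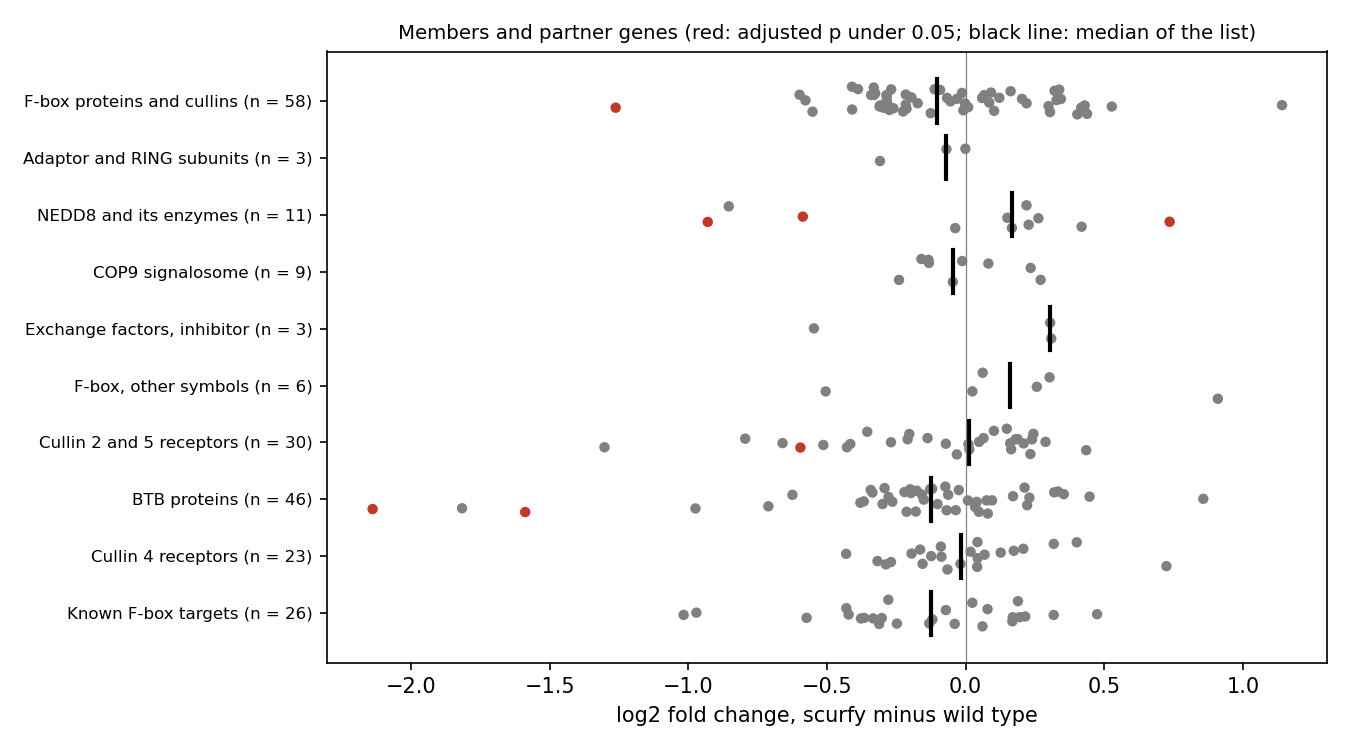
Log2 fold changes (x axis, scurfy minus wild type) of the 58 members and of the genes of 9 partner lists, 1 point a gene, with the median of each list as a black line and genes past the threshold in red. The list medians lie between -0.13 and 0.31, and the 7 called genes are Fbxo11, Nedd8, Uba3, Dcun1d5, Socs1, Gmcl1 and Klhl7.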

How the data were processed

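The deposited table holds normalized counts of 11581 genes in 3 scurfy and 3 wild-type unstimulated libraries, which are read as a signal scaled by the authors. Per the submitters' processing notes the tools were Trim Galore 0.4.4, STAR 2.6, featureCounts, edgeR and DESeq2, on NCBIM37. The authors also deposited log2 fold changes, their test score and p-values for this comparison, and a duplicate table. All values were whole multiples of a constant per library within 0.01 of a read, which gave reads (8852518 to 23149523 a library). No per-sample column was left unused, the number being 0.

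Groups were compared with limma 3.58.1 (R 4.3.3), fitted to log2(normalized count + 1) with trended, robust variance, no covariate and Benjamini-Hochberg adjustment over all genes at 0.05. Alternatives were pseudocounts of 0.5 and 8, a mean of at least 50, library size and TMM scaling, edgeR 4.0.16, DESeq2 1.42.0 and voom on reads, a loess length trend (span 0.3) removed, a replicate block, and leaving out each library. Code was tested on simulated data. Replicate pairs varied by 6.79 to 32.4 times counting error, so none was a repeat deposit. Same-numbered libraries of the groups had correlated deviations of 0.0088, -0.04 and -0.07, so the numbers were not taken as pairs. Exonic lengths and overlaps came from GENCODE M21 (11571 genes matched).

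Every library's value is given for each member past the threshold and for the 4 with the smallest p in each class, save 1 Fbxl gene that is not reported here by name and not drawn singly. Up to 4 called genes, or the one with the smallest p, are named from each list, and in marker lists the most abundant gene. Fbxo38, Fbxo8, Fbxo21, Fbxo32, Fbxo10, Fbxo22, Fbxo5, Fbxo3, Fbxl5, Fbxw10, Cul3, Cul5, Cul7, Cul9, Bcl6, Klf2, Btbd1, Klhl15, Klhl9, Ube2m, Cdkn1b and Socs4 were chosen for mention after their values were seen. The members and lists were chosen with earlier results of these data known.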

Additional observations from a re-analysis of the deposited data

How the results depend on the processing

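The members' median log2 fold change (-0.10) was -0.076 with a pseudocount of 8, -0.24 on library size, -0.052 in edgeR and -0.047 in DESeq2, and -0.14 to -0.087 with 1 library left out. The count of lower members (1) was 4 on library size and 0 to 1 with 1 library left out, 0 being without wild-type library 3. Among partner lists the lower calls (5) were 18 on library size, 11 in DESeq2 and 0 to 5 with 1 library left out, and the higher calls (1) were 2 in DESeq2 and 2 with a mean of at least 50. Of all genes 2.35% were called lower in the main fit, 6.57% on library size, 4.76% in DESeq2 and 0.319% to 1.93% with 1 library left out. The share called higher was 2.12% in the main fit, 4.15% in DESeq2 and 3.12% with a mean of at least 50. Over all genes 518 were called, against 930 on library size, 891 in DESeq2, 305 with the length trend removed and 113 to 403 with 1 library left out. Estimates near 0 changed sign: Cd8b1 to -0.13 on library size, -0.00020 in voom, -0.11 with the length trend removed and as low as -0.0070 with 1 library left out (up to 0.012), Cul7 to -0.050 and Cul9 to -0.077 on library size, and Cul9 to -0.095 with 1 library left out (up to 0.28). Of the 58 members 7 changed sign on library size, 3 with the length trend removed and 2 to 8 with 1 library left out. Where no value shows the cause, the cause was not tested. With the replicate block 372 genes were called, Socs1 was at an adjusted p of 0.0610 (limma), and no other call among the members and named partners changed. Members with few reads, such as Fbxo44, are limited by depth.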
